A study of Mus musculus with 13 samples.

Results

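The genes described here are the 8 GIMAP genes of the mouse (Gimap1, Gimap3, Gimap4, Gimap5, Gimap6, Gimap7, Gimap8 and Gimap9), taken by symbol from the count table of each library. They are 8 of 23337 gene symbols in the tables, and all 8 passed the filter on low counts. Read counts per gene were measured by RNA-seq in 13 libraries of mouse splenic B cells. Control cells were Regnase-1+/+ hCD20TamCre and deficient cells were Regnase-1f/f hCD20TamCre, where Regnase-1 is an endoribonuclease encoded by Zc3h12a that degrades immune mRNAs. Both genotypes carry hCD20TamCre, by its name a tamoxifen-regulated Cre under the human CD20 promoter. Whether the Cre was active to the same degree in both was not tested. Unstimulated cells were labelled naive and untreated, with 4 control and 3 deficient libraries. Stimulated cells received B cell receptor (BCR) stimulation with anti-IgM F(ab')2 for 4 hours, with 3 libraries of each genotype. A culture time for the unstimulated cells, the tamoxifen schedule and the age of the mice are not given in the sources used here, so culture and stimulation cannot be told apart.

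GIMAP proteins (GTPases of immunity-associated proteins) are small GTP-binding proteins, related to septins and dynamins, that are made mainly by lymphocytes. Several sit on the cytosolic face of internal membranes, and their loss in mice or rats is known for shortening the life of peripheral lymphocytes. In mice, Gimap1 and Gimap5 are needed for normal numbers of mature B and T cells, Gimap3 is a close paralog of Gimap5, Gimap4 has been linked to T cell death, and Gimap6 binds an autophagy protein of the Atg8 family.

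The family forms a single cluster on mouse chromosome 6. In the GENCODE annotation of the mm10 build it spans chr6:48647234-48770851, 123618 bases, in the order Gimap8, Gimap9, Gimap4, Gimap6, Gimap7, Gimap1, Gimap5 and Gimap3, with Gimap6 and Gimap3 on the minus strand and the other 6 on the plus strand. Gimap8 has the longest coding sequence, 2064 bases without the stop codon, against 873 to 984 in the other 7. Gimap3 and Gimap5 coding sequences were 90.4% identical over aligned bases, while the other pairs without Gimap8 lay between 55.8% and 67.9%. Of all 50-base stretches in annotated exons, 7.52% of those of Gimap3 and 4.53% of those of Gimap5 occurred in another GIMAP gene, and none of those of the other 6 did. Reads from such stretches could be split between Gimap3 and Gimap5 or dropped in counting, so their separate levels are uncertain to that extent. Gimap1 shares 1107 exon bases with the antisense gene Gimap1os, and Gimap1, Gimap5 and Gimap7 share 198, 153 and 81 exon bases with the read-through model Gm28053. Neither gene has a row in the count tables, and without a stated strand setting reads from Gimap1 and Gimap1os cannot be told apart.

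Promoter sequences are shown for the member with the largest fall after stimulation (Gimap7), the member with the smallest fall (Gimap4) and the member with the highest level per exon length in unstimulated cells (Gimap6), since neighbouring genes of the cluster differed in response. Each runs from 250 bases before to 50 bases after the annotated start, in RefSeq (GRCm38.p6), 5′ to 3′ on the gene's own strand. They lie at chr6:48718371-48718670 (plus strand, Gimap7), chr6:48684328-48684627 (plus strand, Gimap4) and chr6:48708195-48708494 (minus strand, Gimap6). Capitals mark matches to an ETS core (GGAAGT) or a RUNX core (TGTGGT), searched on both strands.
Gimap7: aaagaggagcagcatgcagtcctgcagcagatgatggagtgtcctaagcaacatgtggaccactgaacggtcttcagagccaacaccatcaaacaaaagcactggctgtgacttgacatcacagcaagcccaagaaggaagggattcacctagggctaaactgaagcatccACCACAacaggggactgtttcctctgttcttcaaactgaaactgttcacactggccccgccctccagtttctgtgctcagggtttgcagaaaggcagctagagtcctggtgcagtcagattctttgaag
Gimap4: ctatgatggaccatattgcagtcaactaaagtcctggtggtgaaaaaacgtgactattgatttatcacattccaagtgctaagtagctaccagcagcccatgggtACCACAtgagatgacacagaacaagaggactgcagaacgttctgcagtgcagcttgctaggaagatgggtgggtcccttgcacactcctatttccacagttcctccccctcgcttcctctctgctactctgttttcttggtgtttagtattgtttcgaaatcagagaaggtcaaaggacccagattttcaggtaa
Gimap6: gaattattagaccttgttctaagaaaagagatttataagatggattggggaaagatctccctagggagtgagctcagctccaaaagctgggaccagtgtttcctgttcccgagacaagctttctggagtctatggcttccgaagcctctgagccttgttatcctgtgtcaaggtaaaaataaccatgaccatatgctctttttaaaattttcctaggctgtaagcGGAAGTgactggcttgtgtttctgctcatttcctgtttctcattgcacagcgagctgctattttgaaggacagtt
All 8 members matched the RefSeq table, with 9 promoters, since Gimap8 has 2 starts. The ETS core was found in 4 of the 9 (Gimap1, Gimap5, Gimap6 and Gimap9), against 23.8% of 32851 mouse promoters of the same length. The RUNX core was found in 3 of the 9 (Gimap1, Gimap4 and Gimap7), against 16.8% of all promoters. No AP-1 letters (TGANTCA, 7.81% of all promoters) were found in the 9 windows. A FOXO core (TGTTTAC, 3.65% of all promoters) and an Ikaros core (TGGGAA, 25.6% of all promoters) were each found in 1 window, that of Gimap3.

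Libraries held 21407724 to 33244755 counts. Zc3h12a, the targeted gene, had a level of 125 ± 4.08 CPM (TMM-normalized CPM, the count relative to library size, mean ± SD, n = 4) in control and 99.9 ± 10.8 (n = 3) in deficient unstimulated cells, and of 153 ± 5.58 and 103 ± 9.99 (n = 3 each) after stimulation. Its level was lower in every deficient library than in any control library of the same state, and the difference passed the test in stimulated cells (log2 -0.58 ± 0.08 SE, adjusted p = 0.000784) but not in unstimulated cells (-0.32 ± 0.07, adjusted p = 0.106; edgeR quasi-likelihood test). Reads of the gene remained in the deficient cells. A count over the whole gene does not separate deleted from retained exons. The 10 B cell markers summed to 6008 to 7159 CPM in unstimulated and 3317 to 3778 CPM in stimulated libraries. After stimulation 6 of them fell and 4 rose in control cells, beside 31.8% and 28.5% of all tested genes. In deficient cells 6 fell and 3 rose, beside 29.6% and 28.3%. All 8 early genes of BCR activation rose in both genotypes, where 28.5% (control) and 28.3% (deficient) of all tested genes rose. Deficient animal 1 (the libraries numbered 1) stood apart from animals 2 and 3 of its group, with a chi-square per gene of 22.7 to 33.5 against them, where animals 2 and 3 had 11.5 (unstimulated) and 10.6 (stimulated) between them. Its neutrophil markers (6 with a row) summed to 372 CPM unstimulated and 259 stimulated, against 32.3 to 57.5 and 25.1 to 29.6 CPM in the other 2 animals, and its myeloid sum was also the highest of its group. In unstimulated control libraries the neutrophil sum was 24.8 to 273 CPM, and in stimulated ones 16.4 to 125 CPM. Erythroid markers, by contrast, were low in deficient animal 2 (141 and 86.7 CPM). Deficient animals 1 and 3 had erythroid sums of 528 to 864 CPM, and control libraries had 394 to 732 CPM. The part of these cells in the GIMAP values was not tested. Values without animal 1 are given where they change a call. The labels number the libraries without saying that each is a separate animal, so p-values may measure technical spread in part.

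After 4 hours of BCR stimulation, all 8 GIMAP mRNAs fell in control cells, and all 8 fell in deficient cells. The falls ranged from 1.30-fold for Gimap4 to 5.32-fold for Gimap7 in control cells and from 1.25-fold to 5.79-fold, for the same 2 genes, in deficient cells. As background, 31.8% of the 13574 tested genes passed the test in the downward direction in control cells, 29.6% did in deficient cells, and 27% did in both. The median log2 change of the 8 members was -1.06 in control and -1.05 in deficient cells, beside medians of -0.13 and -0.11 over all tested genes. In control cells 6 of the 8 fell more than 2-fold, and in deficient cells 4 did (Gimap1, Gimap3, Gimap7 and Gimap9), where 12.4% and 11.7% of all genes did so. Groups of the 2 states did not overlap for 8 of 8 members in control and 6 of 8 in deficient cells, where 33.8% and 31.9% of all genes were lower without overlap. The summed level of the 8 genes went from 1102 ± 32.8 CPM (n = 4) to 536 ± 44.0 (n = 3) in control cells and from 1174 ± 138 to 623 ± 62.9 (n = 3 each) in deficient cells. These levels are relative to the other RNA of each library. RNA per cell was not measured, and fewer cells of a type and less RNA per cell cannot be told apart.

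**Figure D1:**
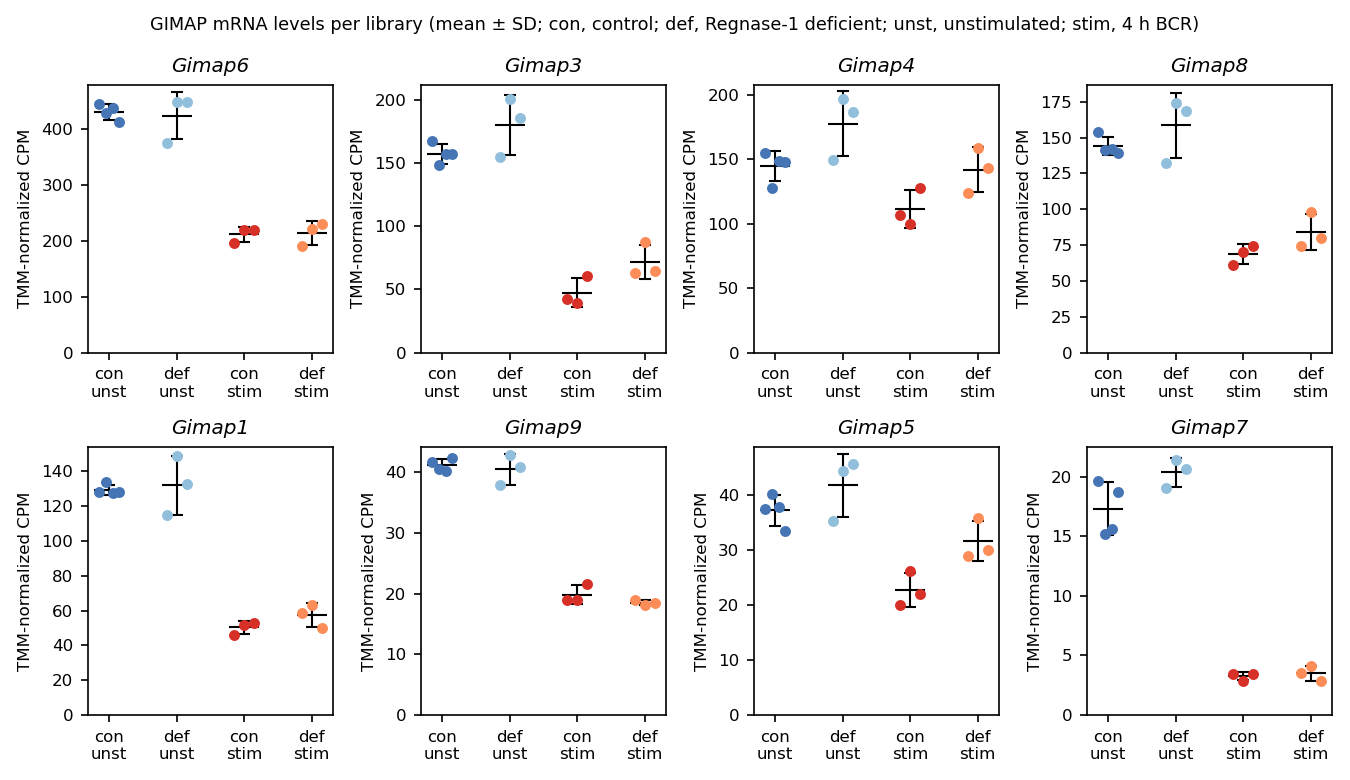
Level of each GIMAP gene (vertical axis, TMM-normalized CPM, from 0) in every library of the 4 groups, with mean ± SD. Every gene is lower after stimulation on average, from 17.3 to 3.25 CPM for Gimap7 and from 145 to 112 CPM for Gimap4 in control cells.

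Gimap7 had the largest fall. Its level was 19.7, 15.2, 15.6 and 18.7 CPM in the 4 control unstimulated libraries and 3.48, 2.85 and 3.42 CPM in the 3 control stimulated libraries. In deficient cells it was 19.0, 21.4 and 20.7 CPM before and 3.52, 4.12 and 2.87 CPM after stimulation. All 6 stimulated libraries lay far below all 7 unstimulated ones, and no groups of the 2 states overlapped. The log2 change was -2.41 ± 0.15 (SE) in control cells (adjusted p = 9.43e-10) and -2.53 ± 0.15 in deficient cells (adjusted p = 1.11e-09; edgeR quasi-likelihood test).

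The Gimap5 and Gimap3 pair, the survival-linked lysosomal GTPase of lymphocytes and its rodent paralog, fell to different extents. Gimap3 had 167, 148, 157 and 157 CPM in control unstimulated and 42.8, 39.2 and 60.4 CPM in control stimulated libraries. In deficient cells Gimap3 had 154, 200.3 and 186 CPM before and 63.0, 87.3 and 64.7 CPM after stimulation. The states of Gimap3 did not overlap in either genotype, and its log2 change was -1.73 ± 0.17 in control (adjusted p = 2.45e-06) and -1.33 ± 0.17 in deficient cells (adjusted p = 3.41e-05; edgeR).

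Gimap5 had a lower level, with 37.3, 40.1, 37.7 and 33.4 CPM in control unstimulated and 19.9, 26.2 and 22.0 CPM in control stimulated libraries. In deficient cells it had 35.2, 44.3 and 45.5 CPM before and 28.9, 35.8 and 30.0 CPM after stimulation. In deficient cells the states overlapped, since stimulated library 2 lay above unstimulated library 1, whereas the control groups did not overlap. The log2 change of Gimap5 was -0.71 ± 0.11 in control (adjusted p = 5.03e-05) and -0.40 ± 0.12 in deficient cells (adjusted p = 0.00976; edgeR).

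Gimap1, required in mice for mature lymphocytes, and Gimap6, the binder of an Atg8 protein, both had narrow spreads in control cells. Gimap1 had 128, 134, 127.5 and 128 CPM in control unstimulated and 46.2, 51.8 and 53.1 CPM in control stimulated libraries. In deficient cells Gimap1 went from 115, 149 and 133 CPM to 58.5, 63.4 and 49.9 CPM. No stimulated library of Gimap1 reached an unstimulated one, and the log2 change was -1.36 ± 0.09 in control (adjusted p = 2.63e-09) and -1.20 ± 0.10 in deficient cells (adjusted p = 2.22e-08; edgeR).

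Gimap6, the member with the highest counts, had 444, 428, 438 and 412 CPM in control unstimulated and 196, 219 and 219 CPM in control stimulated libraries. In deficient cells Gimap6 went from 375, 448 and 448 CPM to 190.5, 222 and 230.1 CPM. Its level fell in both genotypes without overlap, to 49.2% and 50.6% of the unstimulated level in control and deficient cells (log2 -1.02 ± 0.08, adjusted p = 1.25e-08, and -0.98 ± 0.08, adjusted p = 4.32e-08; edgeR).

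Gimap8, the member with the longest coding sequence, and Gimap9 fell to a similar extent as Gimap6. Gimap8 lay at 139.5 to 154 CPM in control unstimulated and 61.0 to 74.6 CPM in control stimulated libraries, and at 133 to 174 and 74.5 to 98.1 CPM in deficient cells. Its log2 changes were -1.07 ± 0.11 in control (adjusted p = 1.24e-06) and -0.91 ± 0.12 in deficient cells (adjusted p = 1.12e-05; edgeR). Gimap9 lay at 40.2 to 42.4 and 18.9 to 21.6 CPM in control cells and at 37.8 to 42.8 and 18.1 to 19.0 CPM in deficient cells. For neither gene did the states overlap, and the log2 changes of Gimap9 were -1.06 ± 0.07 in control (adjusted p = 2.69e-09) and -1.13 ± 0.08 in deficient cells (adjusted p = 3.09e-09; edgeR).

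Gimap4, linked in mouse T cells to the rate of cell death, changed least. It had 155, 128, 149 and 148 CPM in control unstimulated and 107, 99.8 and 128 CPM in control stimulated libraries. In deficient cells it had 149, 197 and 187 CPM before and 124, 159 and 143 CPM after stimulation. In control cells the groups were separated by a narrow gap, and in deficient cells they overlapped. The log2 change was -0.38 ± 0.12 in control (adjusted p = 0.014) and -0.32 ± 0.13 in deficient cells (adjusted p = 0.0423; edgeR). The call in control cells was lost without control stimulated library 1 (adjusted p = 0.0535) or 2 (0.0685). In deficient cells it was lost without unstimulated library 2 (0.157) or 3 (0.123), without stimulated library 1 (0.191) or 3 (0.0904), and without both libraries of animal 1 (0.0581). It was also lost there with DESeq2's size factors (0.0746), with no filter (0.0714), with only the groups compared (0.0534) and with limma on the deposited log2 values (0.0694).

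Same-numbered libraries of the 2 states of a genotype deviated together in expression, which gave 3 pairs in each genotype, and control unstimulated library 4 had no partner. Each of the 8 genes was lower in the stimulated library in 6 of 6 pairs. The change per pair ranged from -2.85 to -2.19 (log2) for Gimap7 and from -0.53 to -0.22 for Gimap4, so the ranges of these members were apart. With the pair as a block, all 8 genes passed the test in both genotypes, Gimap4 with adjusted p = 9.94e-06 in control and 4.96e-05 in deficient cells (edgeR).

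**Figure D2:**
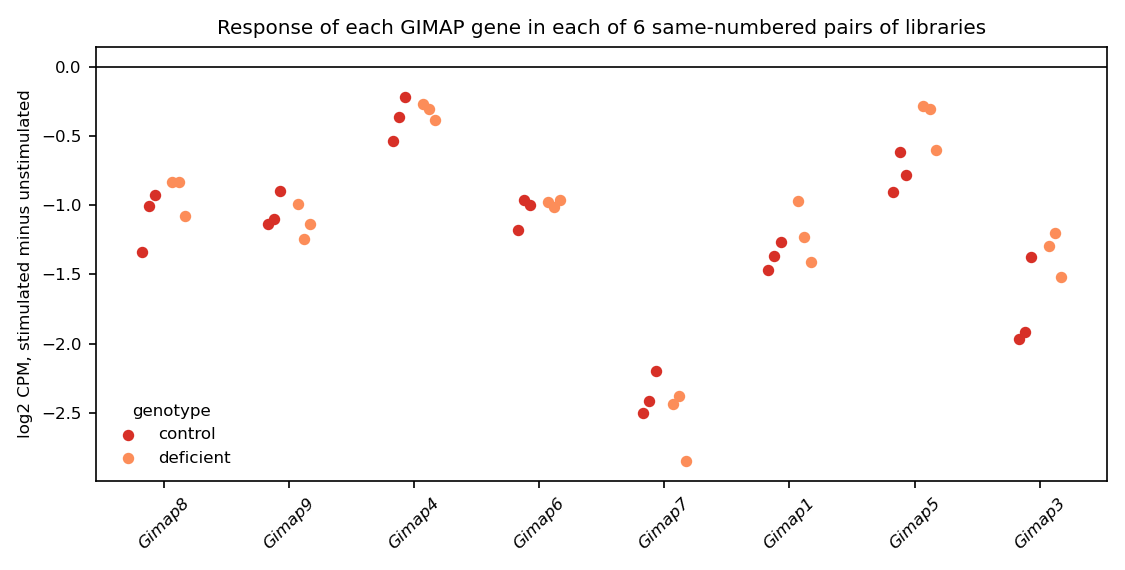
Change of each GIMAP gene (log2 CPM, stimulated minus unstimulated) in 6 pairs of same-numbered libraries, 3 of each genotype, in the order of the genes along the cluster. All 48 points lie below 0, and those of Gimap7 (-2.85 to -2.19) lie below those of every other gene.

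The composition of the family changed with the unequal falls. Per kilobase of annotated exon, the order in control unstimulated cells was Gimap6 (123 ± 4.00 CPM per kb), Gimap4 (79.0 ± 6.41), Gimap3 (61.1 ± 3.07), Gimap1 (42.1 ± 0.95), Gimap8 (39.0 ± 1.76), Gimap9 (25.1 ± 0.60), Gimap5 (8.95 ± 0.67) and Gimap7 (7.44 ± 0.96; SD, n = 4). Libraries of Gimap1 and Gimap8, and of Gimap5 and Gimap7, overlapped in this order, and the other neighbours did not. The order in deficient unstimulated cells was the same, with the same overlaps. After stimulation Gimap4 (60.8 ± 7.98 CPM per kb) stood beside Gimap6 (60.5 ± 3.86) in control cells, with overlapping libraries, and above it in deficient cells (77.3 ± 9.56 against 61.2 ± 5.97, n = 3), without overlap. As a share of the summed level per kb, Gimap4 went from 20.5% to 31.4% and Gimap7 from 1.93% to 0.72% in control cells. Relative to the summed CPM of the other 7 members, Gimap4 (log2 0.77 ± 0.06, SD over 6 pairs) and Gimap5 (0.42 ± 0.17) were higher after stimulation in 6 of 6 pairs, and Gimap1 (-0.34 ± 0.12), Gimap3 (-0.64 ± 0.24) and Gimap7 (-1.49 ± 0.22) were lower in 6 of 6. These relative changes are a description, with no test. The order depends on the length used. With the longest transcript in place of all exon bases, Gimap1 and Gimap3 changed places in control unstimulated cells but not in deficient unstimulated cells. With the coding length, Gimap3 stood above Gimap4 in unstimulated cells of both genotypes. In control stimulated cells Gimap6 stood above Gimap4 with the longest transcript (66.6 against 61.9 CPM per kb, overlapping). In deficient stimulated cells Gimap4 stood above Gimap6 with that length (78.8 against 67.4), now with overlap. With the coding length Gimap6 was above Gimap4 without overlap in stimulated cells of both genotypes (231 against 114 in control and 234 against 144 in deficient cells).

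Deficiency in Regnase-1 was not followed by a called change of any GIMAP gene, with Gimap5 in stimulated cells nearest to the threshold (adjusted p = 0.0562; edgeR). In unstimulated cells 0 of 8 members passed the test (edgeR), beside 0.324% of all genes, and DESeq2 also called 0. The number at an unadjusted p under 0.05 was 1 of 8, beside 8.63% of all genes. It was Gimap4, with a log2 difference of 0.29 ± 0.12 (adjusted p = 0.491; edgeR). The groups of all 8 overlapped in that state, where those of 8.72% of all genes did not. In stimulated cells 0 of 8 passed (edgeR), beside 2.01% of all genes, and DESeq2 called 2 (Gimap3 and Gimap5). The number at an unadjusted p under 0.05 was 4 of 8 (Gimap3, Gimap4, Gimap5 and Gimap8), beside 12% of all genes. Members varied together within groups (median Pearson's r of 0.530 on deviations from group means), so these are not independent results. The median log2 difference, deficient minus control, was 0.15 in unstimulated and 0.24 in stimulated cells over the 8 members, beside -0.02 and 0.00 over all tested genes.

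Gimap5 was at 31.6 ± 3.70 CPM in deficient and 22.7 ± 3.17 CPM in control stimulated cells (n = 3 each), a log2 difference of 0.48 ± 0.12 (SE, adjusted p = 0.0562; edgeR). Its 3 deficient libraries (28.9 to 35.8 CPM) lay above the 3 control libraries (19.9 to 26.2 CPM). Over 18 alternative settings the adjusted p of this difference lay between 0.0132 and 0.245, and it passed the threshold in 7. The lowest value came with the replicate number as a block, although that number did not pair the genotypes. In 1 of the 18, Gimap3 and Gimap5 were counted as 1 gene. Among the 7 were the fits without control stimulated library 2 (0.0322), without deficient stimulated library 1 (0.0316) and without both libraries of deficient animal 1 (0.0133). Gimap3 was at 71.7 ± 13.6 CPM in deficient and 47.5 ± 11.4 CPM in control stimulated cells, a log2 difference of 0.60 ± 0.17 (adjusted p = 0.137; edgeR), also without overlap. Its adjusted p lay between 0.00313 and 0.396 over the same 18 settings and passed in 2, DESeq2 and the fit without control stimulated library 3 (0.0178). As background, groups did not overlap for 17.8% of all genes in this comparison. With Gimap3 and Gimap5 counted as 1 gene, the difference was 0.56 ± 0.13 (adjusted p = 0.052). Gimap8 (0.29 ± 0.12, adjusted p = 0.31) passed only without both libraries of deficient animal 1 (0.0318) among its 18 settings.

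The response to stimulation was not shown to differ between the genotypes for any member. The difference of the responses (deficient minus control) was 0.40 ± 0.23 for Gimap3 and 0.31 ± 0.16 for Gimap5 on the log2 scale, and between -0.12 and 0.16 for the other 6. In the main fit, which does not use the pairs, it passed in 0 of 8 members (edgeR, adjusted p = 1 for each), beside 0.00737% of all genes. DESeq2 also called 0. The number at an unadjusted p under 0.05 was 0 of 8, beside 3.76% of all genes. With the pair as a block (4 residual degrees of freedom) 0 members passed, where 68 of all genes did (edgeR). Over 25 alternative settings the adjusted p of Gimap5 was 0.3 at its lowest. By pair, Gimap5 changed by -0.90, -0.61 and -0.78 (log2) in control cells. Its deficient pairs had -0.28, -0.31 and -0.60, the last of them next to the control pair at -0.61. For every other member the pairs of the 2 genotypes overlapped. How many of all genes have pairs apart in this way was not counted, so this is not a result about Gimap5.

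**Figure D3:**
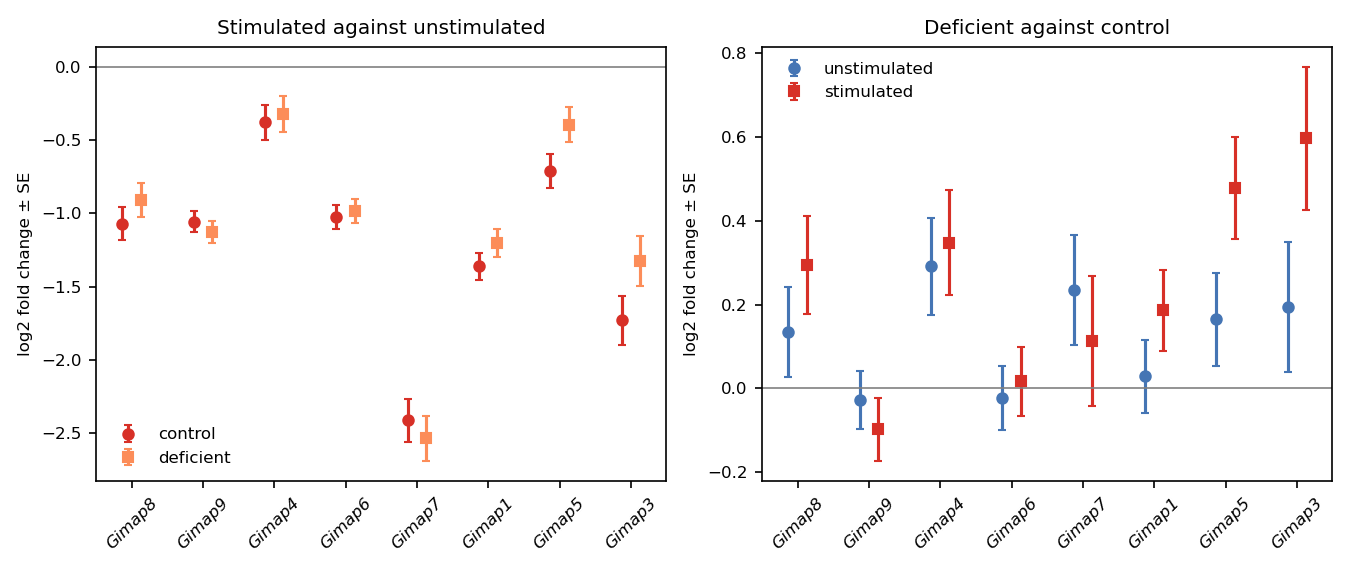
Log2 fold change ± SE of each GIMAP gene from the edgeR fit, stimulated against unstimulated in each genotype (left) and deficient against control in each state (right). All 16 points on the left lie below 0, and on the right Gimap5 (0.48) and Gimap3 (0.60) in stimulated cells are the highest.

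GIMAP genes are also expressed by T cells, NK cells and endothelium, so the markers of these cells were read in the same libraries. CD43 beads, used to deplete non-B cells, bind most T cells. The T cell markers with a row (14 of 17 listed) summed to 25.9 to 155 CPM in control unstimulated, 21.1 to 89.9 in control stimulated, 29.2 to 79.7 in deficient unstimulated and 20.7 to 57.4 in deficient stimulated libraries. Of the defining markers, Cd3e was at a mean of 3.30 CPM in control unstimulated and 1.31 CPM in control stimulated cells, and none of the 14 was at 0 in every library of a group. None of the 14 passed the test in any of the 5 comparisons (edgeR; 0 at an unadjusted p under 0.05, and 1 called by DESeq2, after stimulation in control cells). After stimulation 31.8% (control) and 29.6% (deficient) of all tested genes fell. The median log2 change of the 14 was -0.94 in control and -0.52 in deficient cells, beside -0.13 and -0.11 over all tested genes. Only 1 (control) and 2 (deficient) of the 14 were above 0. Levels were low and uneven, with Cd3e at 0.52 to 6.74 CPM in control unstimulated libraries. The lack of calls therefore does not show a lack of change. In control unstimulated libraries 1 to 4, the summed GIMAP level was 1147, 1075, 1107 and 1080 CPM at T cell sums of 25.9, 42.0, 104 and 155 CPM. In control stimulated libraries 1 to 3 it was 496, 529 and 583 CPM at T cell sums of 21.1, 33.4 and 89.9 CPM, so there the library with more T cell marker RNA also had more GIMAP RNA. In deficient libraries 1 to 3 it was 1018, 1276 and 1228 CPM at 57.5, 79.7 and 29.2 CPM before stimulation, and 562, 688 and 619 CPM at 46.7, 57.4 and 20.7 CPM after it. Deficient library 2 thus had the highest value of both sums in each state. Deficient library 1 had a higher T cell sum but a lower GIMAP level than library 3 in each state. With the T cell level as a term in the fit, 8 of 8 GIMAP genes passed the test in control cells and 7 of 8 in deficient cells. Gimap4 in deficient cells had -0.30 ± 0.13 with that term (adjusted p = 0.0635; edgeR), against -0.32 ± 0.13 without it.

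The 9 NK cell markers summed to 15.4 to 57.8 CPM in control unstimulated, 12 to 44.6 in control stimulated, 15.2 to 36.9 in deficient unstimulated and 10.5 to 27.6 in deficient stimulated libraries, and 0 of 9 passed in any comparison (edgeR; 0 at an unadjusted p under 0.05, 0 by DESeq2). Their median log2 change after stimulation was -0.69 in control and -0.43 in deficient cells, with 0 and 3 of the 9 above 0. Here too the lack of calls does not show a lack of change. The 8 myeloid markers summed to 160 to 459 CPM in control unstimulated, 84.0 to 166 in control stimulated, 152 to 543 in deficient unstimulated and 74.0 to 180.2 in deficient stimulated libraries, and 3 of 8 fell in each genotype (37.5%, beside 31.8% and 29.6% of all genes). The part of NK and myeloid cells in the GIMAP values was not tested. The 10 endothelial markers summed to 209 to 226 CPM in control unstimulated and 37.4 to 53.9 in control stimulated libraries, and to 236 to 297 and 58.3 to 70.9 CPM in deficient cells. Pecam1, which B cells express as well, made up 212 CPM of the control unstimulated mean and 35.4 CPM of the control stimulated mean. In control unstimulated cells Cdh5 (1.94 CPM) and Kdr (0.87 CPM) were low, and Emcn was at 0 in all 4 libraries. Kdr was at 2.32 CPM in control stimulated cells. Of the 6 tested markers 1 fell and 0 rose in control cells, and 1 fell and 1 rose in deficient cells (16.7% for each 1). In each genotype 3 of the 6 were above 0. Between genotypes 1 of 6 was called in stimulated cells, beside 2.01% of all genes, and 0 in unstimulated cells.

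**Figure D4:**
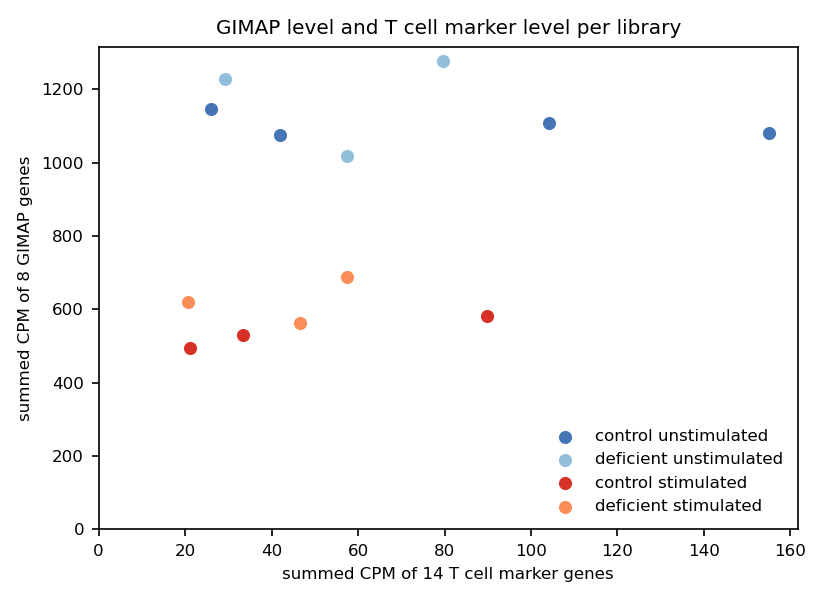
Summed level of the 8 GIMAP genes against the summed level of 14 T cell marker genes (both TMM-normalized CPM) in each of 13 libraries, coloured by group. Unstimulated libraries lie between 1018 and 1276 CPM and stimulated ones between 496 and 688 CPM on the vertical axis, at T cell marker levels that overlap.

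The mRNAs of proteins linked to GIMAPs moved in both directions. Of 8 genes for reported partners, 3 rose and 5 fell in control cells after stimulation, where 28.5% of all tested genes rose and 31.8% fell. The anti-apoptotic Bcl2l1 rose (log2 2.99 ± 0.14, from 41.0 to 325 CPM), as did the chaperone Hspa8 (1.02 ± 0.07) and the pro-apoptotic Bax (0.56 ± 0.08). The anti-apoptotic Bcl2 (-0.97 ± 0.12) and Mcl1 (-0.36 ± 0.05), the pro-apoptotic Bad (-1.52 ± 0.17), the kinase gene Gsk3b (-1.04 ± 0.06) and Gabarapl2 (-0.75 ± 0.08), the partner of Gimap6, fell. In deficient cells 3 rose and 4 fell, beside 28.3% and 29.6% of all tested genes, and Bcl2 had -0.28 ± 0.12 (adjusted p = 0.0555; edgeR). In stimulated cells Bcl2 was the only partner called between genotypes, higher in deficient cells (log2 1.17 ± 0.12, 33.9 against 15.1 CPM, adjusted p = 8.22e-05; edgeR). That is 1 of 8, beside 2.01% of all genes. Of the 5 Atg8 family genes, 4 fell in both genotypes, as did 27% of all tested genes. In control cells these were Map1lc3a (-0.81 ± 0.15), Gabarapl2, Map1lc3b (-0.39 ± 0.06) and Gabarap (-0.17 ± 0.05), whereas Gabarapl1 had 0.15 ± 0.14 (adjusted p = 0.372; edgeR).

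Among 24 genes of lymphocyte quiescence and naive state, 19 fell and 2 rose in control cells, with a median log2 change of -1.38, beside 31.8% of all tested genes that fell and 28.5% that rose. The 4 with the smallest p were the cell cycle inhibitor Cdkn1b (-1.88 ± 0.07), the thioredoxin inhibitor Txnip (-1.30 ± 0.06), the antiproliferative Btg2 (-1.63 ± 0.07) and the MYC antagonist Mxd4 (-2.68 ± 0.13). Another group of immune GTPases was also read. Of 18 tested interferon-inducible GTPases, 12 rose and 2 fell in control cells, with a median log2 change of 1.74, beside the same 28.5% and 31.8% of all genes. The 4 with the smallest p were Igtp (1.80 ± 0.15), Irgm1 (2.15 ± 0.17), Irgm2 (1.67 ± 0.15) and Mx1 (3.82 ± 0.32), all GTPases of cell-autonomous defence. In deficient cells 11 of the 18 rose and 2 fell, beside 28.3% and 29.6% of all genes. These lists are described by their counts, with no test of the lists against each other.

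Genes that flank the cluster were read as well. Of 18 annotated genes with a row within 500000 bases of the cluster, 12 were tested, and 5 (41.7%) fell and 2 (16.7%) rose in control cells, beside 31.8% and 28.5% of all tested genes, with a median log2 change of -0.51. The nearest called genes on the Gimap8 side were Zfp775 (-0.51 ± 0.17, adjusted p = 0.0168) and Repin1, which rose (0.87 ± 0.11, adjusted p = 3.58e-06; edgeR). On the Gimap3 side the nearest tested genes, Tmem176b (-0.37 ± 0.53) and Tmem176a (-0.34 ± 0.47), did not pass. Within the cluster the size of the fall did not follow position. Gimap4, with the smallest fall, lies between Gimap9 and Gimap6, and Gimap7, with the largest, lies between Gimap6 and Gimap1.

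**Figure D5:**
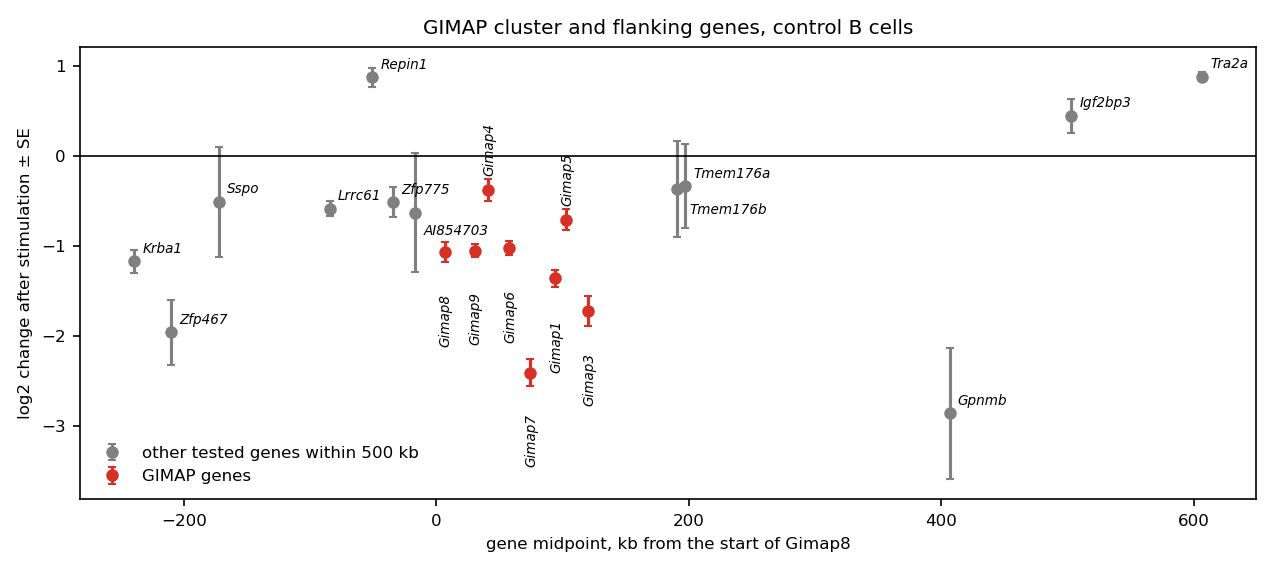
Log2 change after stimulation ± SE in control cells for the 8 GIMAP genes and the 12 tested flanking genes, by the distance of each gene's midpoint from the start of Gimap8 in kb. The GIMAP genes lie between -2.41 and -0.38, and the flanking genes between -2.86 (Gpnmb) and 0.88 (Tra2a).

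Members varied together across libraries. Over the 28 pairs of members, Pearson's r of log2 CPM over 13 libraries had a median of 0.932, from 0.610 (Gimap4 and Gimap9) to 0.985 (Gimap3 and Gimap8). On deviations from the group means the median was 0.530, from -0.069 (Gimap6 and Gimap7) to 0.894 (Gimap3 and Gimap4). Outside the family, the 5 genes most like the mean standardized GIMAP level over the 13 libraries were Acox3 (a peroxisomal oxidase, r = 0.990), Ptprc (the CD45 phosphatase, 0.990), Pou6f1 (0.987), Il10ra (the interleukin-10 receptor chain, 0.986) and Usf1 (0.986). Such likeness was common, with 1917 genes over r = 0.9, over libraries that fall into 2 states. On deviations from group means only 7 genes exceeded 0.9, and the 5 highest were the MHC class I gene H2-Q4 (0.955), the RNA helicase gene Ddx17 (0.925), Gmip (0.922), the MHC class I gene H2-D1 (0.909) and the adhesion receptor gene Cd2 (0.907). H2-Q4 and H2-D1 have near-identical relatives, so their counts are uncertain. These correlations describe 13 libraries, where all genes of a library share its depth and sample quality, and carry no test.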

How the data were processed

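Splenic B cells were enriched with CD43 beads. For each library the authors deposited a table of read counts by gene symbol. Per the submitters' processing notes TopHat, HTSeq and build mm10 were used, without stated versions. A second deposited table per library holds log2 values, with DESeq2 named in those notes. Annotation, strand setting and the treatment of reads matching several genes are not given in the sources used here. For abundant genes, the slope of the deposited log2 values on log2 counts was 0.995 to 0.997.

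Of 23337 symbols in the count tables, 1 had a missing cell and was left out, and 18872 had a read. The test was the quasi-likelihood test of edgeR 4.0.16 (R 4.3.3), after filterByExpr with a minimum count of 10 and TMM scaling, with robust estimation and 1 mean for each of the 4 groups. It covered 13574 genes with 9 residual degrees of freedom. Standard errors are the log2 change divided by the root of F. A call is an adjusted p (Benjamini-Hochberg, all tested genes) under 0.05. The fit was tested on simulated data. Levels are TMM-normalized CPM, and the floor of 3 counts is 0.0902 to 0.140 CPM by library, which covers counting error only. Chi-square per gene between replicates was 7.78 to 33.5, above sampling noise for every pair. Exon lengths and coordinates come from GENCODE vM21 (mm10), whose names matched 89.7% of symbols.

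All 8 members are named in every comparison. Of the partner and Atg8 lists every member was to be named, and of the other lists the up to 4 called members with the smallest p. The likeness rule took the 5 tested genes with the highest r. Flanking genes were named by position and by size of change, after their values were seen. The members and lists were chosen with earlier results of these data known.

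Pairing was checked on deviations from group means over 9658 genes. Same-numbered libraries of the 2 states correlated with r of 0.489 to 0.83 within a genotype, so the numbers were taken to pair the states, and each pair is called an animal. Across genotypes r lay between -0.595 and -0.0568. Sex, read from sex-linked genes, was male in 1 of 4 control and 2 of 3 deficient animals and was tried as a term. Other alternatives were DESeq2 1.42.0, its size factors, upper-quartile factors, no filter or a filter of 1 CPM in 3 libraries, the replicate block, a fit of only the compared groups, the T cell marker level as a term, Gimap3 and Gimap5 summed, limma 3.58.1 on the deposited log2 values, both libraries of deficient animal 1 left out, each library left out in turn, and other gene lengths.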

Additional observations from a re-analysis of the deposited data

Results flagged for a closer look

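Gimap1 in control unstimulated cells had 1 library apart from the others. Library 2 was at 134 CPM and the other 3 between 127.5 and 128.2 CPM, so that the gap was 0.890 of the whole range of the group. The criterion (Dixon's 95% critical value) marks about 1 in 20 groups of this size by chance. It was applied only to the control unstimulated group, which has 4 libraries, and the groups of 3 libraries were not checked. Every unstimulated library of Gimap1 still lay above every stimulated one.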

How the results depend on the processing

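In every alternative run, all 8 GIMAP genes kept a lower level after stimulation in both genotypes. Of 152 member results under alternatives in control cells 2 lost the call, and of 144 in deficient cells 10 did, all of them for Gimap4. In these totals the fit with Gimap3 and Gimap5 summed is entered for both genes. Between genotypes in stimulated cells, the number of members called was 1 with upper-quartile factors, 1 with no filter, 1 with the replicate block (6 residual degrees of freedom), 2 with DESeq2, 2 without both libraries of deficient animal 1, and 0 to 1 when each library was left out in turn. The replicate number did not pair the genotypes, and the pair as a block changed no GIMAP call after stimulation. Directions turned in 22 results, all of them small and uncalled. In unstimulated cells the genotype difference was 0.0044 for Gimap6 and 0.0025 for Gimap9 with upper-quartile factors, 0.0039 and 0.0020 with only the groups compared, and 0.053 and 0.015 without both libraries of deficient animal 1 (-0.024 and -0.027 with all). In stimulated cells it was -0.022 for Gimap6 with sex as a term and -0.0023 with limma (0.017 otherwise). With each library left out in turn, the values that changed sign spanned -0.069 to 0.12 (Gimap1), -0.069 to 0.056 (Gimap6) and -0.072 to 0.018 (Gimap9) in unstimulated cells, -0.038 to 0.11 (Gimap6) and -0.027 to 0.24 (Gimap7) in stimulated cells, and -0.055 to 0.17 (Gimap4), -0.039 to 0.11 (Gimap6) and -0.26 to 0.0018 (Gimap7) for the difference of responses. Over all genes, called differences between genotypes ranged from 17 to 198 around 44 in unstimulated cells (198 with sex as a term, 163 with DESeq2), from 129 to 532 around 273 in stimulated cells (532 with DESeq2), and from 1 to 68 around 1 for the difference of responses (68 with the animal block, in a fit of 4 residual degrees of freedom). The causes were not tested. Depth limits Gimap7 most, with 69 to 131 counts in the stimulated libraries.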
